A study of Ictalurus punctatus with 54 samples.

Results

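A set of 60 gill transcripts stood higher in every channel catfish sampled right after copper sulfate exposure than in any untreated fish. They were 60 of the 13672 transcripts (0.439%) that had a count of at least 10 in at least 6 of the 54 libraries, out of 37586 transcripts listed. The rule used CPM (the count of a transcript relative to its library's total count) scaled by TMM, a method that sets a factor for each library so that most transcripts do not differ. It took transcripts whose lowest Cu0h fish lay above the highest control fish, whose Cu0h mean was at least 10 CPM and whose Cu0h mean was at least 2 times the control mean. The set was thus chosen by its levels in the Cu0h and control fish, and these are described without a test. Comparisons among the other 42 fish were tested. Their levels were not compared by the rule, but they counted towards the filter on counts, which 33 of the 60 transcripts would pass on the Cu0h and control libraries alone and 27 passed only with the other fish. Each test is therefore given for the 60 and for these 33, a split made after the data were seen.

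Gill RNA came from fingerlings averaging 7.3 g, with 6 fish in each of 9 groups. Fish of the Cu24h groups were held for 24 h after copper sulfate and then either sampled uninfected (Cu24h) or challenged with Flavobacterium covae and sampled 1, 4 or 24 h later (Cu24h-1h, Cu24h-4h, Cu24h-24h). Fish of the Cu0h groups were sampled uninfected directly after copper sulfate (Cu0h) or challenged at once and sampled 1, 4 or 24 h later (Cu0h-1h, Cu0h-4h, Cu0h-24h). The control fish received neither copper nor bacteria. The deposited labels give the copper sulfate as 2.1 mg/mL, a unit that differs from the paper's, and name the bacterium F. columnare. They have the Cu24h fish held in standing water, whereas the paper's methods also describe flow-through water and recovery, which is the word used below. Fish challenged without copper were not analysed here, so an effect of challenge cannot be told apart from one that needs copper before it. Time since copper was matched between Cu24h and Cu0h-24h, both sampled about 24 h after copper, the first uninfected and the second challenged. Where a challenged group is set against the uninfected group of its own schedule, challenge and elapsed time differ together. Fish of a group were separate animals, but the tank of each is not given, so p-values measure the spread between fish that may have shared a tank.

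Copper is an essential metal and, in excess, a toxic one, and copper sulfate is used in fish culture against external parasites, fungi and bacteria. The gill is a thin epithelium in direct contact with the water, which carries gas exchange and ion uptake, and it is a main site of copper uptake and injury in fish. F. covae is an agent of columnaris disease, in which the gill is a common site of lesions. The files identify transcripts by Ensembl numbers that could not be paired with gene names in the tables used here. No role, gene list or sequence is therefore given for any transcript, and the gill label could not be checked against marker genes. Because whole gill was sequenced, fewer cells of a type and less RNA per cell cannot be told apart.

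Library totals ranged from 352013 to 1190864 counts. Some copper fish stood apart within their group, uninfected ones first. At an equal depth of 352013 counts, Cu24h replicates 1 and 3 had 11334 and 12927 transcripts detected, and the other 4 Cu24h fish had 17380 to 18826. Cu0h replicates 5 and 6 had 17998 and 17940 transcripts detected, the other 4 Cu0h fish 12556 to 13866, and the controls 14632 to 15487. The scaling factors followed the same split, at 1.17 and 1.18 in Cu0h replicates 5 and 6 and 0.705 to 0.783 in the other Cu0h fish. Some challenged fish also stood apart. Cu0h-4h replicate 4 had 13376 transcripts detected (16022 to 17256 in the rest of its group) and a factor of 0.887 (1.05 to 1.21). Cu0h-24h replicate 6 had 13633 transcripts detected (16237 to 17502) and a factor of 0.863 (1.12 to 1.29). Several counts that compare Cu24h with other groups are given below with and without Cu24h replicates 1 and 3. The counts among the 33 transcripts, and that of transcripts with every Cu24h-24h fish above every Cu24h fish, use all 6 Cu24h fish only.

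Right after copper, the 60 transcripts ranged widely in level. Their means in Cu0h ran between 10.1 and 1098 CPM (median 49.7), and in control fish between 0.305 and 457 CPM (median 12.5). In 11 of them the Cu0h mean was 100 CPM or more. The ratio of means had a median of 3.22 over the set, and 12 transcripts had a ratio of at least 5. For 3 of these 12 the 6 controls held only 1 or 2 counts together, so their ratios are poorly fixed. ENSIPUT00000021772 had 60 counts over the Cu0h fish and 1 over the controls, a ratio of pooled levels of 49.1. Its exact binomial interval at 95% reached from 8.48 to 1972, for counting error alone. Among the 57 transcripts with more than 3 control counts, ratios ran from 2.01 to 33.9.

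ENSIPUT00000009696 had the widest gap between the groups. Its lowest, median and highest Cu0h fish had 22.0, 49.2 and 132 CPM, and its control fish 0, 0.903 and 6.50 CPM. ENSIPUT00000030083 followed, with 101, 118 and 165 CPM in Cu0h and 19.5, 36.3 and 40.3 CPM in control fish. The 2 groups lay far apart in both transcripts, since the lowest Cu0h fish was more than 2 times the highest control fish. ENSIPUT00000003972 was alike, at 91.6, 131 and 160 CPM in Cu0h and 15.4, 34.0 and 44.4 CPM in control fish.

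ENSIPUT00000032845 was close to an on and off pattern. The Cu0h fish had 56.4 to 236 CPM, whereas 5 of 6 control fish had 0 and the other had 26.9 CPM. The most abundant transcript of the set was ENSIPUT00000034470, at 866, 1025 and 1600 CPM in Cu0h and 399, 460 and 533 CPM in control fish. ENSIPUT00000032199 had 422, 928 and 1687 CPM in Cu0h and 288, 351 and 393 CPM in control fish, so its Cu0h fish were spread widely and the lowest was only just clear of the controls. ENSIPUT00000033338 had 355, 798 and 923 CPM in Cu0h and 184, 204 and 268 CPM in control fish.

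Many transcripts entered narrowly. The lowest Cu0h fish divided by the highest control fish, each after adding 1 CPM, ran from 1.01 to 3.07 with a median of 1.20. Just inside the 2 times threshold was ENSIPUT00000033242, with mean 516 CPM in Cu0h and 257 CPM in control fish (ratio 2.01). Just outside was ENSIPUT00000016541, with 477 CPM in Cu0h and 239 CPM in control fish and a ratio fractionally under 2, and the next outside had a ratio of 1.87. In all, 81 transcripts (0.592% of those kept) had every Cu0h fish above every control fish, and 152 (1.11%) had every Cu0h fish below every control fish. The choice depended on which Cu0h fish entered it. Without replicates 5 and 6 the rule took 283 transcripts, 54 of the 60 among them. Leaving out any Cu0h fish can only loosen the step on the lowest Cu0h fish. No other pair was left out, so the rise cannot be tied to these 2 fish. The choice also depended on depth, since with every library thinned to equal depth the rule took 54 transcripts, of which only 34 were among the 60.

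The 60 transcripts are not all separate measurements. ENSIPUT00000026919 and ENSIPUT00000026937 had a Pearson correlation of 0.996 across the 54 libraries (log2 scale), and their counts in a fish differed by a factor of at most 1.5. They may share reads, and their levels cannot be told apart from the split of reads that the counting made. ENSIPUT00000033242 and ENSIPUT00000033338, which lie beside each other in 48 of the 54 files, had a correlation of 0.926.

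Summed over the 60 transcripts, the level differed widely between the groups. After recovery the uninfected Cu24h fish had 1987, 3068 and 3528 CPM (lowest, median and highest fish), and the directly sampled Cu0h fish had 5361, 6766 and 8169 CPM. The control fish had 2233, 2442 and 2734 CPM, so Cu24h overlapped the controls and Cu0h did not. The Cu24h median was 0.453 times that of Cu0h and 1.26 times that of the controls.

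After challenge the sum was high in both schedules by 24 h. In recovered fish it was 3226, 4793 and 7027 CPM at 1 h, 3536, 4231 and 7428 CPM at 4 h and 10256, 10762 and 11776 CPM at 24 h. In fish challenged at once it was 7574, 9544 and 11222 CPM at 1 h, 8172, 10012 and 12609 CPM at 4 h and 11121, 11618 and 13978 CPM at 24 h. At 1 h and at 4 h every recovered fish lay below every fish challenged at once, and at 24 h the groups overlapped. Uninfected Cu24h and challenged Cu0h-24h fish, both about 24 h after copper, did not overlap. Their sums ran from 1987 to 3528 CPM and from 11121 to 13978 CPM, a difference that was not tested. Relative to the control median the medians were 1.96, 1.73 and 4.41 times in recovered fish and 3.91, 4.10 and 4.76 times in fish challenged at once, at 1, 4 and 24 h.

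**Figure D1:**
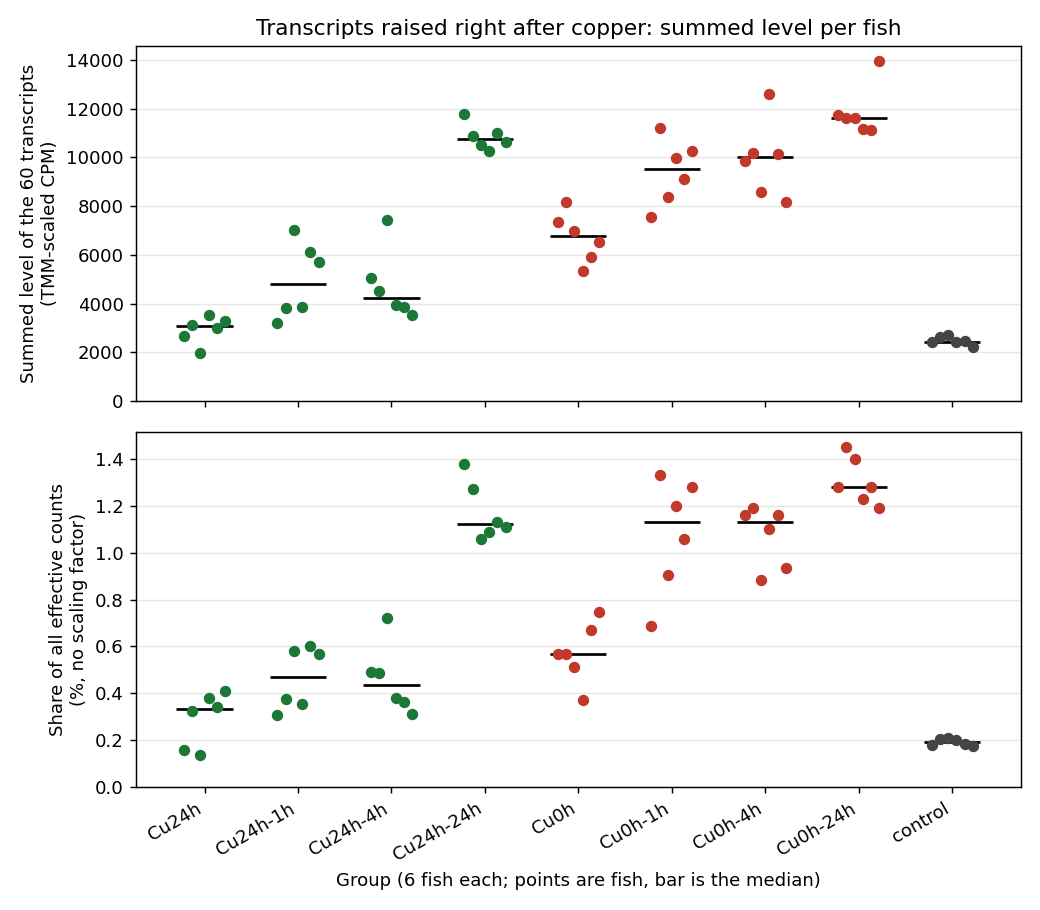
Summed level of the 60 transcripts per fish, as TMM-scaled CPM (top) and as a share of all effective counts in percent without a scaling factor (bottom), for 6 fish in each of 9 groups, with black bars at the median. The recovered fish lay below the fish challenged at once at 1 h and 4 h and overlapped them at 24 h.

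The 5 most abundant transcripts made up 56.7% of the Cu0h sum. Without these 5 the medians were 1470 CPM in Cu24h, 2025, 2285 and 5122 CPM at 1, 4 and 24 h after recovered challenge, 2948 CPM in Cu0h, 5083, 4624 and 5926 CPM at 1, 4 and 24 h after immediate challenge, and 924 CPM in control fish. The order of 1 h and 4 h then turned round in both schedules, while recovered challenge stayed below immediate challenge in median at each time. Scaling mattered in the uninfected copper groups and in challenged fish too. Cu0h-24h replicate 6 had the highest sum of its group in CPM (13978) and the lowest share of all counts (1.19%). As a share of all counts the set held 0.138% to 0.409% in Cu24h, 0.372% to 0.745% in Cu0h and 0.177% to 0.208% in control fish. Cu24h replicates 1 and 3 had the lowest shares, 0.160% and 0.138%, and the other 4 Cu24h fish had 0.326% to 0.409%, above every control. In CPM the same split stood at 2657 and 1987 in replicates 1 and 3 and 2992 to 3528 in the other 4 Cu24h fish. Within Cu0h, replicates 5 and 6 had sums of 5922 and 6535 CPM, inside the range of the other 4 fish, but as shares of all counts they had 0.671% and 0.745%, above the 0.372% to 0.567% of the other 4. Within Cu24h-1h the sum moved with library total, at 5716 to 7027 CPM in the 3 fish with 605923 to 741727 counts and 3226 to 3870 CPM in the 3 fish with 352013 to 476149 counts, and the part of depth in this was not tested.

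In Cu24h fish, most of the 60 transcripts stood between their Cu0h and control levels. The mean was at most 0.5 times the Cu0h mean in 36 of the 60, against 10.1% of all transcripts kept, and at or below the control mean in 6 of the 60, against 46.2%. In 15 every Cu24h fish lay below every Cu0h fish (0.329% of all transcripts kept), and in 0 was the Cu24h mean above the Cu0h mean (54.9% of all kept). Without Cu24h replicates 1 and 3 these counts were 26 (14.5% of all kept), 4 (40.6%), 18 (1.76%) and 4 (58.2%) of the 60. Since high Cu0h levels chose the set, nothing is read from the lower Cu24h values alone. Against the controls, 17 of the 60 had a Cu24h mean of at least 2 times the control mean (13.7% of all transcripts kept), and 22 of the 60 without replicates 1 and 3 (21.4%). The count of transcripts with every Cu24h fish above every control fish was 0 of 60 (0.19% of all kept), and it was 13 of 60 without Cu24h replicates 1 and 3 (6.99% of all kept).

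The extremes of this comparison were ENSIPUT00000009696 and ENSIPUT00000000077. The first had 0, 3.14 and 15 CPM in Cu24h, against 22.0, 49.2 and 132 CPM in Cu0h, with no overlap. The second had 2.90, 23.6 and 40.5 CPM in Cu24h, against 16.3, 19.7 and 34.4 CPM in Cu0h, so its groups overlapped fully and its Cu24h mean was 0.991 times that of Cu0h.

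**Figure D2:**
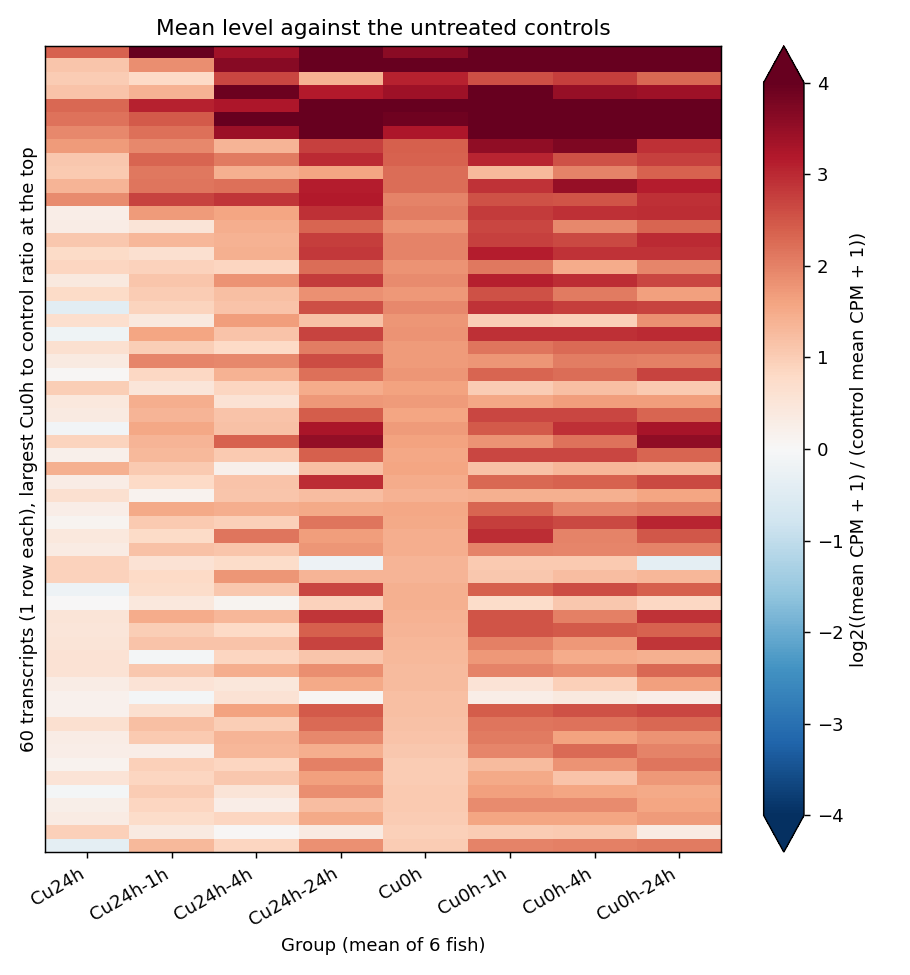
Mean level of each of the 60 transcripts (rows, ordered by the ratio of Cu0h to control means) in 8 groups (columns, mean of 6 fish), as log2 of the mean CPM plus 1 over the control mean CPM plus 1. The Cu24h column is palest, with a median log2 ratio of 0.51, and the columns at 24 h after challenge are dark in both schedules, with medians of 2.22 (Cu24h-24h) and 2.32 (Cu0h-24h).

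In the challenged groups the number of the 60 transcripts clear of the controls, with the lowest fish above the highest control fish, was lower after recovery at 1 and 4 h than in the rest. In recovered fish it was 12 of 60 at 1 h (1.05% of all transcripts kept), 20 at 4 h (1.92%) and 48 at 24 h (7.55%). In fish challenged at once it was 47 of 60 at 1 h (6.05% of all kept), 43 at 4 h (5.57%) and 46 at 24 h (7.74%). These counts share the 6 control fish that chose the set, so they are descriptions. The median log2 ratio of the group mean to the control mean was 1.05, 1.19 and 2.22 after recovered challenge at 1, 4 and 24 h, against 0.05, 0.12 and 0.15 over all transcripts kept. After immediate challenge it was 2.31, 2.13 and 2.32, against 0.24, 0.13 and 0.16 over all transcripts kept. No transcript was clear of the controls in all 7 of the groups other than Cu0h, which the count of 0 in Cu24h already fixed. Of these 7 groups, 21, 13 and 7 transcripts were clear in 4, 5 and 6, and 6 were clear in none. Without a share over all transcripts beside them, nothing about the set is read from these counts.

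**Figure D3:**
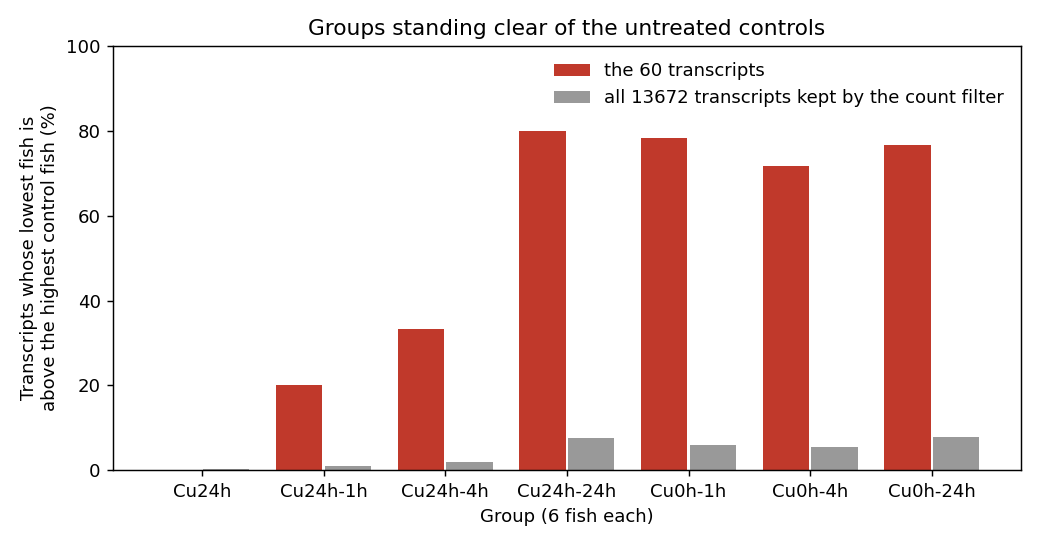
Share of transcripts (percent) whose lowest fish lay above the highest control fish in each of 7 groups, for the 60 transcripts (red) and for all 13672 transcripts kept by the count filter (grey). The share was 0% in Cu24h, 20% at 1 h and 33.3% at 4 h after recovered challenge, and 71.7% to 80% in the other 4 groups.

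Several transcripts went above their level right after copper once fish were challenged. Every fish lay above every Cu0h fish in 0, 0 and 15 of the 60 at 1, 4 and 24 h after recovered challenge (0.176%, 0.68% and 2.55% of all kept), and in 12, 12 and 19 of the 60 at 1, 4 and 24 h after immediate challenge (1.71%, 1.61% and 2.79%). The highest group mean was at Cu24h-24h in 8 transcripts, at Cu24h-4h in 1, at Cu0h in 7, at Cu0h-1h in 14, at Cu0h-4h in 7 and at Cu0h-24h in 23. ENSIPUT00000032845 and ENSIPUT00000032199 were among the 7 that were highest in Cu0h. The lowest group mean was that of the controls in 51 of the 60. The rule asked for controls below Cu0h, so it shaped these counts of highest and lowest means. No share over all transcripts is given beside them, so nothing about the set is read from them.

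Challenge after recovery was then tested against the uninfected recovered fish, whose levels the rule did not compare. A transcript was called when the FDR (Benjamini-Hochberg adjusted p over all transcripts tested) was below 0.05 in edgeR's quasi-likelihood test and the log2 fold change was over 1 in size. Counts at an unadjusted p under 0.05 are given without a share over all transcripts, so nothing about the set is read from them. At 24 h, 42 of the 56 transcripts that passed the filter on low counts were higher in Cu24h-24h than in Cu24h, against 9.82% of all 8051 tested, and 0 were lower, against 10%. Without adjustment, 46 had a p under 0.05, and DESeq2's Wald test called 43. Without Cu24h replicates 1 and 3, edgeR called 45 in either direction, among them ENSIPUT00000000077 as lower. For this setting and the Wald test no share over all transcripts is given, so nothing about the set is read from these counts. The median log2 fold change was 1.71 (range -0.82 to 5.15), against -0.06 over all transcripts tested. The filter kept 1 of the 56, ENSIPUT00000009696, through its high Cu24h-24h level alone, since no Cu24h fish reached the filter's level. Its call among the 42 is therefore a description. Others passed mainly through Cu24h-24h, with few Cu24h fish at that level, and how many did so was not counted. ENSIPUT00000007028, with 1, 2, 1, 10, 19 and 48 counts in the Cu24h fish, is an example. The calls of such transcripts are not independent of the filter. Over all 60, with no filter on this comparison, every Cu24h-24h fish lay above every Cu24h fish in 41, against 5.43% of all transcripts kept. Of the 33 transcripts that needed no other fish to pass the rule's filter, 29 were called higher and 0 lower, against 7.91% and 14.1% of the transcripts that passed it in the same way.

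The largest rises at 24 h were in ENSIPUT00000009696 and ENSIPUT00000007028. The first is the transcript that the filter kept through Cu24h-24h alone, so its values are a description. The second passed the filter mainly through that group. ENSIPUT00000009696 had 72.3, 171 and 195 CPM in Cu24h-24h, against 0, 3.14 and 15 CPM in Cu24h (log2 fold change 5.15, SE 0.55, edgeR FDR 1.75e-06). ENSIPUT00000007028 had 238, 363 and 537 CPM in Cu24h-24h, against 1.97, 5.90 and 32.5 CPM in Cu24h (log2 fold change 4.80, SE 0.51, edgeR FDR 3.77e-06). In both the 2 groups were widely apart. ENSIPUT00000007028 was among the 27 that passed the rule's filter only with the other fish, as were ENSIPUT00000012239, ENSIPUT00000021772, ENSIPUT00000026937, ENSIPUT00000028006 and ENSIPUT00000032242 below. Abundant transcripts were also called, such as ENSIPUT00000033338 with 1767, 2000 and 2361 CPM in Cu24h-24h, against 60.1, 227 and 281 CPM in Cu24h (log2 fold change 3.33, SE 0.37, edgeR FDR 5.83e-06). ENSIPUT00000003972 had 209, 232 and 272 CPM in Cu24h-24h, against 15, 42.2 and 50.4 CPM in Cu24h (log2 fold change 2.57, SE 0.31, edgeR FDR 1.85e-05), again with no overlap.

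At 1 and 4 h after recovered challenge the number called depended on the fit. At 4 h edgeR called 2 of the 44 tested as higher in Cu24h-4h than in Cu24h (1.2% of all 7101 tested) and 0 as lower (1.48%), with 19 at an unadjusted p under 0.05. DESeq2's Wald test called 9 of 60 as higher (1.41% of all tested) and 0 as lower (1.82%). The median log2 fold change was 0.74, against -0.04 over all transcripts tested. With all 9 groups in 1 fit, 16 of 60 were higher (3% of all tested) and 1 lower (2.72%). Without Cu24h replicate 1 it was 4 higher and 1 lower (1.82% and 2.08% of all tested), without replicate 3 it was 5 and 1 (2.32% and 2.85%), and without both it was 10 and 2 of 56 (6.85% and 6.47%). The number was 1 without Cu24h-4h replicate 1, 3, 4 or 5. In the 33 that passed the rule's filter without the other fish, 32 were tested and 0 called higher or lower. The shares of transcripts passing likewise were 1.15% and 1.92%. ENSIPUT00000007028 had 55.3, 123 and 170 CPM in Cu24h-4h, against 1.97, 5.90 and 32.5 CPM in Cu24h (log2 fold change 3.17, SE 0.50, edgeR FDR 0.00158), with no overlap. ENSIPUT00000028006 had 15, 40.8 and 87.0 CPM in Cu24h-4h, against 7.51, 11.4 and 23.7 CPM in Cu24h (log2 fold change 1.67, SE 0.44, edgeR FDR 0.0404). Its groups overlapped, and it was no longer called without any of 7 single fish, which were Cu24h replicates 4, 5 and 6 and Cu24h-4h replicates 1, 3, 4 and 5.

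At 1 h edgeR called 0 of the 40 tested as higher in Cu24h-1h than in Cu24h (0.305% of all 6225 tested) and 0 as lower (0.337%). At an unadjusted p under 0.05 there were 11. DESeq2's Wald test called 5 of 58 as higher (0.522% of all tested) and 0 as lower (0.724%). The median log2 fold change was 0.58, with a range of -0.73 to 1.70, against -0.04 over all transcripts tested. With all 9 groups in 1 fit, 8 of 60 were higher (1.12% of all tested). The count was 1 without Cu24h replicate 1, Cu24h replicate 6 or Cu24h-1h replicate 1, 2 without Cu24h replicate 3, and 7 of 49 without both Cu24h replicates 1 and 3, when 6.52% of all tested were higher. Among the 33 that passed the rule's filter without the other fish, 32 were tested and 0 called higher or lower. The shares of transcripts passing likewise were 0.286% and 0.388%, so nothing about the set is read from the 0.

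**Figure D4:**
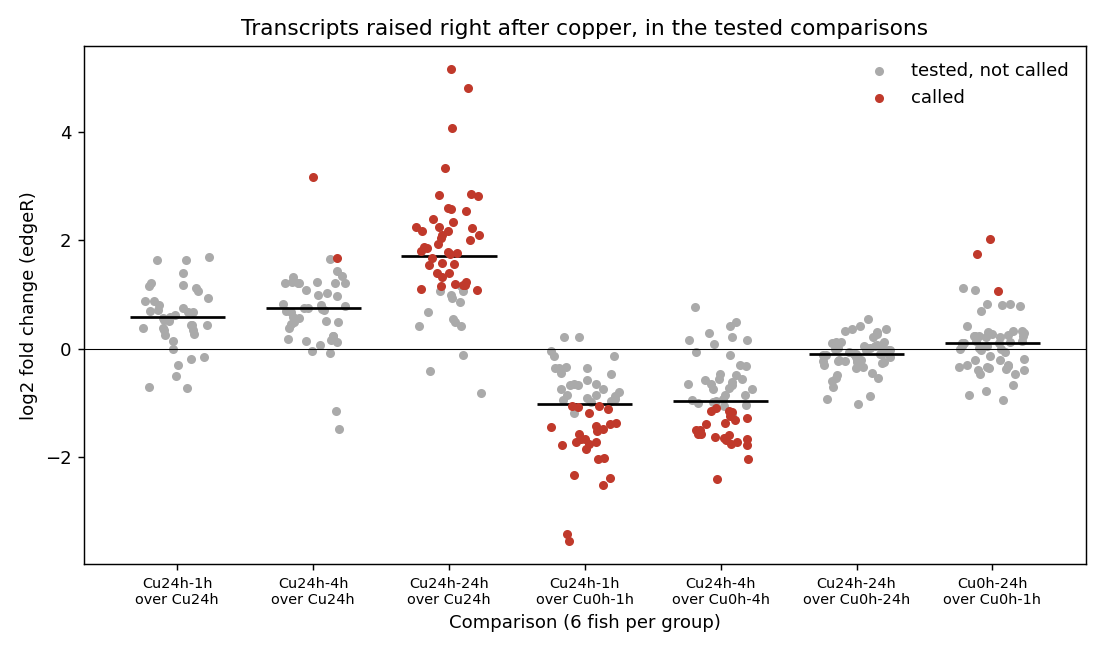
log2 fold change of the tested members of the set in 7 comparisons of 6 fish against 6, with called transcripts in red, other tested transcripts in grey and black bars at the median. The fold changes lie mostly above 0 at Cu24h-24h over Cu24h, where 42 were called higher, against 9.82% of all tested. They lie mostly below 0 for recovered against immediate challenge at 1 h and 4 h. There 26 and 23 were called lower, against 7.5% and 3.91% of all tested. At 24 h they lie around 0, where 0 were called, against 0.0478% of all tested as higher and 0.107% as lower.

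The schedules were next compared at matched times after challenge. Library totals at 1 h had medians of 541036 counts in Cu24h-1h and 853693 in Cu0h-1h. Depth therefore differed along with schedule. At 1 h, edgeR called 26 of the 54 transcripts tested as lower in Cu24h-1h than in Cu0h-1h, against 7.5% of all 6936 tested, and 0 as higher, against 6.95%. Without adjustment, 38 had a p under 0.05. The median log2 fold change was -1.02 (range -3.54 to 0.22), against -0.10 over all tested. Over all 60, every Cu24h-1h fish lay below every Cu0h-1h fish in 21 (2.46% of all kept). Of the 33 that passed the rule's filter without the other fish, 16 were called lower and 0 higher, against 5.86% and 9.29% of transcripts passing likewise.

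ENSIPUT00000009696 fell furthest at 1 h, with 0, 6.30 and 27.5 CPM in Cu24h-1h, against 45.4, 93.1 and 199 CPM in Cu0h-1h (log2 fold change -3.54, SE 0.58, edgeR FDR 0.000912). ENSIPUT00000007028 had 3.10, 15.2 and 22.0 CPM in Cu24h-1h, against 36.9, 116 and 278 CPM in Cu0h-1h (log2 fold change -3.42, SE 0.52, edgeR FDR 0.000605). The groups did not overlap in either transcript. ENSIPUT00000009696 passed the filter on low counts mainly through Cu0h-1h, with 0, 5, 15, 0, 1 and 8 counts in the Cu24h-1h fish. The calls of such transcripts are not independent of the filter, and how many there were was not counted. ENSIPUT00000030083, with 26.6, 52.8 and 138 CPM in Cu24h-1h and 174, 261 and 310 CPM in Cu0h-1h, was also called (log2 fold change -2.04, SE 0.31, edgeR FDR 0.000591).

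At 4 h, edgeR called 23 of the 57 transcripts tested as lower in Cu24h-4h than in Cu0h-4h, against 3.91% of all 7791 tested, and 0 as higher, against 4.18%. The median log2 fold change was -0.97 (range -2.40 to 0.77), against -0.02 over all tested. Over all 60, the recovered fish lay wholly below in 17 (1.84% of all kept). Of the 33 that passed the rule's filter without the other fish, 15 were called lower and 0 higher, against 3.2% and 5.79% of transcripts passing likewise. ENSIPUT00000032242 had 6.14, 7.36 and 14.5 CPM in Cu24h-4h, against 32.7, 43.2 and 97.2 CPM in Cu0h-4h, with no overlap (log2 fold change -2.40, SE 0.39, edgeR FDR 0.00133). It passed the filter mainly through Cu0h-4h, with 6, 4, 11, 10, 4 and 4 counts in the Cu24h-4h fish. Its call is therefore not independent of the filter, and how many others passed likewise was not counted. ENSIPUT00000021772 had 0, 12 and 26.0 CPM in Cu24h-4h, against 23.0, 54.2 and 75.8 CPM in Cu0h-4h (log2 fold change -2.04, SE 0.48, edgeR FDR 0.0120), where the highest recovered fish lay within the range of the other group. ENSIPUT00000026937, of the near-identical pair, had 4.88, 14.0 and 32.9 CPM in Cu24h-4h and 40.5, 48.3 and 59.8 CPM in Cu0h-4h (log2 fold change -1.67, SE 0.34, edgeR FDR 0.00548).

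The 2 times share no fish, and 16 transcripts were lower in the recovered fish at both, 61.5% of the 26 at 1 h and 69.6% of the 23 at 4 h. Over all transcripts, 121 were lower at both, 23.3% of the 520 at 1 h and 39.7% of the 305 at 4 h. Of the transcripts lower at either time, another list of 33, 28 (84.8%) were also among the 42 that were higher in Cu24h-24h than in Cu24h, a share to set beside the 75% of all tested members that were higher there. Over all transcripts the share was 31.8% (224 of 704).

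At 24 h after challenge, hardly any transcript was called between the schedules, inside the set or outside it. Of the 58 tested, edgeR called 0 as higher in Cu24h-24h than in Cu0h-24h (0.0478% of all 8373 tested) and 0 as lower (0.107%), with 7 at an unadjusted p under 0.05 and 0 called by DESeq2's Wald test. The median log2 fold change was -0.09 (range -1.02 to 0.55). Among the 33 that passed the rule's filter without the other fish, 0 were called higher and 0 lower, against 0.061% and 0.0407% of transcripts passing likewise. The counts of 0 lie near these shares, so nothing about the set is read from them. In 44 of the 58 the approximate 95% interval of the log2 difference lay wholly within 1 of 0, and in the others it reached a 2-fold difference or more. ENSIPUT00000033338 had 1767, 2000 and 2361 CPM in Cu24h-24h, against 1682, 2002 and 2929 CPM in Cu0h-24h (log2 fold change -0.01, SE 0.17, edgeR FDR 0.990).

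Whether the change from 1 to 24 h after challenge differed between the schedules was tested as an interaction over 24 fish. Among these, the Cu24h-1h fish had the lower library totals given above. The interaction is the schedule difference at 24 h minus that at 1 h, both tested above on the same fish. It is therefore not a further independent result. The change was larger in recovered fish than in fish challenged at once for 14 of the 59 transcripts tested (1.47% of all 10546 tested) and smaller for 0 (0.901%), by edgeR. The median difference was 0.93 on the log2 scale, against 0.09 over all tested, and 33 had a p under 0.05 before adjustment. Of the 33 that passed the rule's filter without the other fish, 9 were called larger and 0 smaller, against 1.48% and 1.7% of transcripts passing likewise. The number called was 9 without Cu0h-1h replicate 2 or 4, Cu24h-1h replicate 4 or Cu24h-24h replicate 4. The largest differences were 3.31 in ENSIPUT00000009696 (SE 0.70, edgeR FDR 0.00842) and 2.89 in ENSIPUT00000012239 (SE 0.78, edgeR FDR 0.0379). ENSIPUT00000012239 had 0, 2.07 and 9.18 CPM in Cu24h-1h and 6.66, 13.3 and 24.5 CPM in Cu24h-24h, and in fish challenged at once 9.08, 28.2 and 48.8 CPM in Cu0h-1h and 4.80, 16.2 and 22.7 CPM in Cu0h-24h. Its levels were low and its call was lost with DESeq2's Wald test and without any of 14 of the 24 single fish.

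In fish challenged at once, few transcripts of the set were called between 1 and 24 h, although the summed level stood higher at 24 h. The sum ran from 7574 to 11222 CPM (mean 9420) in Cu0h-1h and from 11121 to 13978 CPM (mean 11872) in Cu0h-24h. Much of this rise lay in a few transcripts. Means went from 1158 to 2075 CPM in ENSIPUT00000033338, 673 to 1432 CPM in ENSIPUT00000034470 and 144 to 599 CPM in ENSIPUT00000007028. Over the transcripts tested, 35 fold changes were positive and 22 negative. Over all 60, every Cu0h-24h fish lay above every Cu0h-1h fish in 6 (1.34% of all kept) and below in 0 (0.702%). Of 57 tested, edgeR called 3 as higher in Cu0h-24h than in Cu0h-1h (1.38% of all 8625 tested) and 0 as lower (0.626%), and the median log2 fold change was 0.10 (range -0.94 to 2.03). Of the 33 that passed the rule's filter without the other fish, 2 were called higher and 0 lower, against 1.25% and 0.924% of transcripts passing likewise. ENSIPUT00000007028 had 414, 644 and 711 CPM in Cu0h-24h, against 36.9, 116 and 278 CPM in Cu0h-1h (log2 fold change 2.03, SE 0.38, edgeR FDR 0.00683). ENSIPUT00000027400 had 60.8, 139 and 203 CPM in Cu0h-24h, against 22.1, 43.8 and 52.5 CPM in Cu0h-1h (log2 fold change 1.75, SE 0.28, edgeR FDR 0.00250). The groups were apart in both. The third was ENSIPUT00000034470, at 972, 1140 and 2636 CPM in Cu0h-24h and 551, 627 and 823 CPM in Cu0h-1h (log2 fold change 1.06, SE 0.25, edgeR FDR 0.0307). Its fold change lay near the threshold, the log2 value was 0.80 without Cu0h-24h replicate 6, and the call was also lost without Cu0h-1h replicate 2, 4, 5 or 6 or Cu0h-24h replicate 1.

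**Figure D5:**
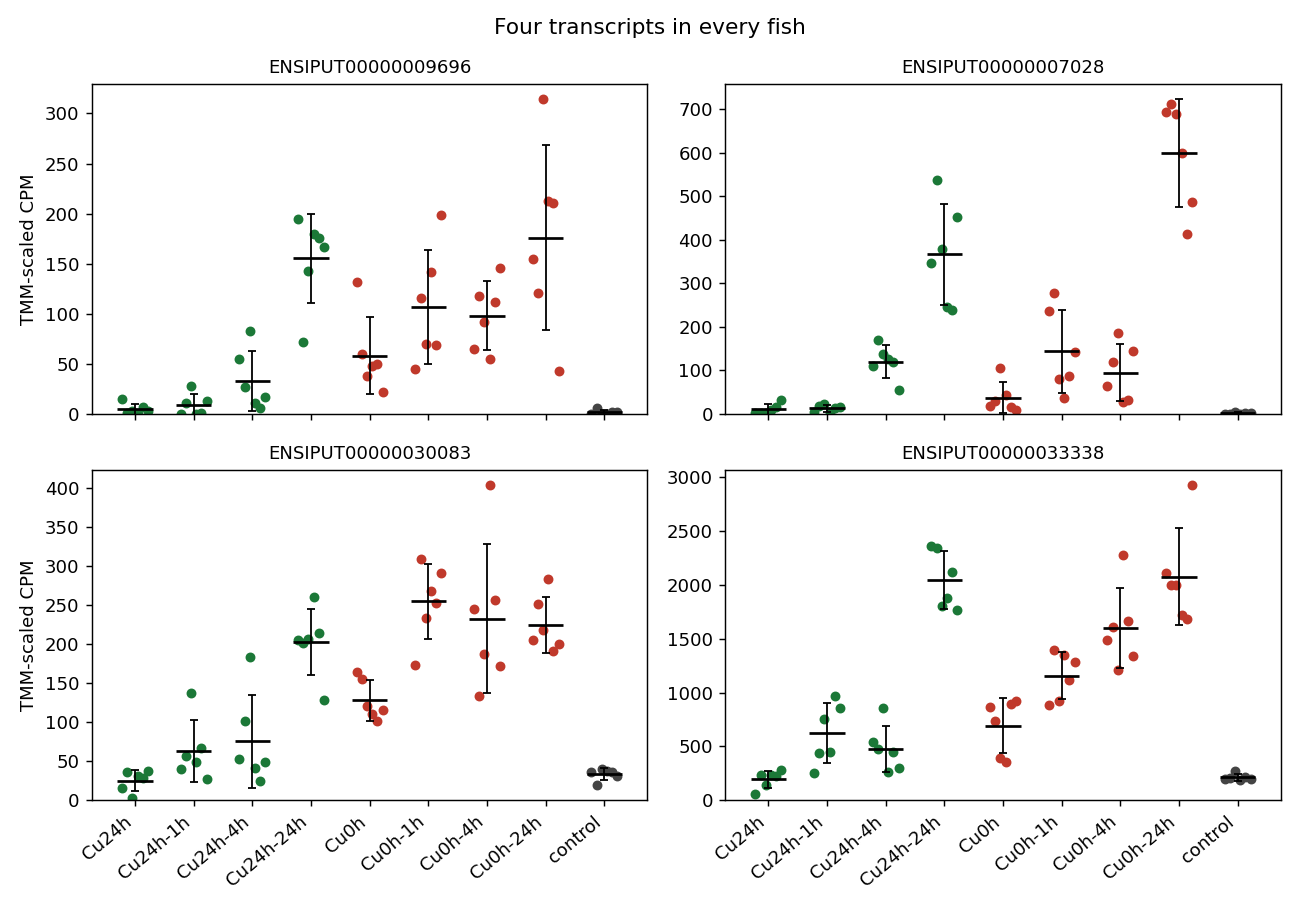
Level of 4 transcripts in every fish (TMM-scaled CPM, linear axis from 0), with points for fish, bars for the mean and whiskers for the SD of 6 fish per group. ENSIPUT00000009696 and ENSIPUT00000007028 were at 0 to 6.50 CPM in control fish and reached means of 155 and 366 CPM in Cu24h-24h and 176 and 599 CPM in Cu0h-24h.

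The transcripts of the set differed in how they ran over the groups. ENSIPUT00000007028 averaged 37.1 ± 35.7 CPM in Cu0h and 599 ± 124 CPM in Cu0h-24h (SD, n = 6 each). ENSIPUT00000030083 averaged 128 ± 25.6 CPM in Cu0h, 255 ± 48.0 CPM in Cu0h-1h and 225 ± 36.0 CPM in Cu0h-24h, and the log2 fold change of Cu0h-24h over Cu0h-1h was -0.21 (SE 0.18, edgeR FDR 0.652). ENSIPUT00000032199 averaged 945 ± 467 CPM in Cu0h, 586 ± 140 CPM in Cu0h-1h and 614 ± 198 CPM in Cu0h-24h, lower in mean after challenge, with overlapping fish. ENSIPUT00000032845 varied widely between fish of a group, since 1 or 2 fish were at 0 in each of Cu24h, Cu24h-1h, Cu24h-4h, Cu0h-1h and Cu0h-4h while other fish of those groups had up to 196 CPM.

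Across the 42 fish outside the Cu0h and control groups, each transcript was set against the summed CPM of the other 59. Spearman's rho ran from -0.23 to 0.93 with a median of 0.72, against a median of 0.02 for all transcripts kept. The median was 0.79 among the 33 that passed the rule's filter without these fish. It was above 0.7 in 32 transcripts and below 0.3 in 9. The fish share groups, scaling factors and depth, so the correlations are a description without a p-value. The highest was that of ENSIPUT00000033338. The lowest was that of ENSIPUT00000020771, singled out after its values were seen, which had 0, 6.62 and 7.61 CPM in Cu24h-24h, 0, 3.79 and 10.9 CPM in Cu0h-24h and 15.8, 17.1 and 21.7 CPM in Cu0h. Its level at 24 h after challenge overlapped that of the control fish (0, 4.62 and 13.6 CPM). Over the 7 pairwise comparisons tested, 47 of the 60 were called in at least 1 and 13 in none. That is 79.7% of the 59 tested in any of them, against 26.2% of all 9981 transcripts so tested.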

How the data were processed

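Gill RNA of 54 fish was measured in 9 groups of 6, grouped by the deposited labels. The authors deposited an effective count per Ensembl transcript, an estimated count rounded to a whole number without normalization. The paper describes Trimmomatic, STAR with the Coco_2.0 assembly, HTSeq and edgeR, whereas the submitters' notes name Trim Galore 0.5.0, Bowtie2 2.3.4.3, eXpress 1.5.1 and DESeq2 1.24.0 with no role, and whether the deposited Ensembl transcripts rest on that assembly was not established here. How an estimation program divides reads between similar transcripts affects each value. Of the 37586 transcripts, 4254 had 0 in all fish, and 0 matched the RefSeq table used for names. Chi-square per transcript was 5.29 or more in all 135 pairs of fish of a group, far above sampling noise, so each library was counted as its own sample.

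R 4.3.3 was used. Levels are CPM with TMM factors over 54 libraries, from library sizes after the filter (count of at least 10 in at least 6 libraries). Each comparison was fitted on its own 12 libraries (24 for the interaction) with edgeR 4.0.16, using filterByExpr (minimum count 10, minimum total count 15), TMM and the quasi-likelihood F-test, with p-values adjusted by Benjamini-Hochberg over all transcripts tested. The SE is the fold change divided by the square root of F, an approximation, and the approximate intervals come from it. The members, lists and comparisons were chosen with earlier results of these data known. Transcripts named are the 6 with the widest gap between Cu0h and control fish, the 3 most abundant in Cu0h, those with the largest called changes in each comparison (at most 2 each way), the extremes of Cu24h over Cu0h and the neighbours of the threshold. The partner of a near-identical pair and the least correlated transcript were added after their values were seen.

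The fits were also tested on simulated data in which 200 transcripts carried a log2 fold change of 2. They called 60.5% of them for Cu24h-4h over Cu24h (4.72% of calls false, 6456 tested), 71.0% for Cu24h-24h over Cu0h-24h (8.39% false, 7691 tested) and 32.5% for the interaction (11.0% false, 9822 tested). As alternatives, all 9 groups entered 1 fit, the filter was dropped, libraries were thinned to equal depth, DESeq2 1.42.0 gave size factors or its Wald test, and further settings were the replicate number as a block, leaving out libraries that stand apart and leaving out each fish. A further 4 were chosen after seeing the data, namely library sizes before the filter, the rule's count filter on the Cu0h and control fish alone, and the summed level with DESeq2 size factors or as a share of all counts.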

Additional observations from a re-analysis of the deposited data

Results flagged for a closer look

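Within groups of 6, a fish was singled out when its gap to the next fish exceeded 0.625 of the group's range. This held in 16 of 153 groups checked (10.5%). The rate of about 1 in 20 by chance holds for independent values with a normal spread. These are CPM of the same fish over several transcripts, some near 0, so no excess is read from it. In control fish, ENSIPUT00000009696 had 6.50 CPM in replicate 2 (next 2.02), ENSIPUT00000021772 had 2.02 CPM in replicate 6 (next 0), ENSIPUT00000032845 had 26.9 CPM in replicate 1 (next 0) and ENSIPUT00000007028 had 5.50 CPM in replicate 3 (next 2.02). In Cu0h, ENSIPUT00000009696 had 132 CPM in replicate 1 (next 59.8), ENSIPUT00000032845 had 236 CPM in replicate 2 (next 103) and ENSIPUT00000007028 had 106 CPM in replicate 3 (next 43.0).

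Cu0h-4h replicate 4 was high in 3 transcripts, with 1685 CPM of ENSIPUT00000034470 (next 860), 1296 CPM of ENSIPUT00000032199 (next 695) and 97.2 CPM of ENSIPUT00000032242 (next 51.1). Cu0h-24h replicate 6 had a summed level of 13978 CPM over the 60 transcripts (next 11750) and 2929 CPM of ENSIPUT00000033338 (next 2113). The scaling factors of these 2 fish were 0.887 and 0.863, the lowest of their groups, and without scaling the set held 1.10% and 1.19% of their counts, inside the range of the first group and lowest in the second. Cu24h replicate 1 had 1014 CPM of ENSIPUT00000034470 (next 547) and 721 CPM of ENSIPUT00000032199 (next 339), with the lowest scaling factor of all fish, 0.610. Cu24h-1h replicate 3 had 138 CPM of ENSIPUT00000030083 (next 67.5), and Cu24h-4h replicate 3 had 1121 CPM of ENSIPUT00000034470 (next 582).

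By edgeR's interaction test, the change from 1 to 24 h after challenge was larger in recovered fish in 14 of the 59 transcripts tested. Over all tested, 1.47% were called larger and 0.901% smaller. Among the 14 the difference was 3.31 in ENSIPUT00000009696 (edgeR FDR 0.00842) and 2.89 in ENSIPUT00000012239 (edgeR FDR 0.0379) on the log2 scale. The levels of ENSIPUT00000012239 were low. Its call was lost with DESeq2's Wald test and without single fish, as given above.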

How the results depend on the processing

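The call counts that moved by over 1.5 times were those with few calls. For Cu24h-1h over Cu24h (0 called) the count was 5 with DESeq2's Wald test, 3 with no low-count filter, 8 with all 9 groups in 1 fit, 7 without Cu24h replicates 1 and 3, and 0 to 2 when each fish was left out. For Cu24h-4h over Cu24h (2 called) it was 9, 8, 17 and 12 under the same settings, and 1 to 6 with each fish left out. The share of all tested transcripts called higher under these settings was 0.522%, 0.643%, 1.12% and 6.52% at 1 h, against 0.305% in the main fit. At 4 h it was 1.41%, 1.3%, 3% and 6.85%, against 1.2%. For the interaction (14 called) it was 9 with no low-count filter and 9 to 19 with each fish left out. The other counts moved less, to 38 to 43 for Cu24h-24h over Cu24h, 23 to 30 and 20 to 27 for recovered against immediate challenge at 1 and 4 h, 0 to 0 at 24 h and 2 to 3 for Cu0h-24h over Cu0h-1h with each fish left out. The number of transcripts meeting the rule was 76 with DESeq2 size factors (60 shared), 57 with no filter (53 shared), 54 at equal depth (34 shared), 59 with library sizes before the filter (59 shared) and 283 without Cu0h replicates 5 and 6 (54 shared). DESeq2 size factors moved the median log2 ratio of Cu0h to control over all transcripts to 0.10, against 0 with TMM. The number clear of the controls in Cu24h was 13 without its replicates 1 and 3 (0 with all fish), and the Cu24h median over the control median was 1.73 as a share of all counts (1.26 in CPM). Among the 33 transcripts that passed the count filter on the Cu0h and control fish alone, the calls were 0 for Cu24h-4h over Cu24h, 16 and 15 for recovered against immediate challenge at 1 and 4 h, and 9 for the interaction, since fewer transcripts were counted. The other causes were not tested.

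The replicate numbers did not pair the fish, since same-numbered fish had correlations of -0.14 to 0.12 and at most 1 of 6 pairs was over 0.1 in a comparison. With the replicate block the counts were 1 for Cu24h-1h over Cu24h, 1 for Cu24h-4h over Cu24h, 9 for the interaction and 35 for Cu24h-24h over Cu24h. No share over all transcripts is given for this setting, so nothing about the set is read from these counts. Of 2278 alternative values of named transcripts, 2154 kept their side of the threshold, 75 were no longer called and 49 became called. Direction was checked only for the 37 of 115 named results called in the main fits, where 0 values reversed. At these depths a transcript under about 10 CPM rests on few counts, and fish at 0 limit the fold changes of the lowest transcripts.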
